A study of Mus musculus with 6 samples.

Results

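Heat shock chaperones of the cytosol and the mitochondria were measured in cultured MC38 cells, a tumour line from a mouse colon adenocarcinoma. The set was named as 10 genes, Hsp90aa1, Hsp90ab1, Hspa8, Hspa1a, Hsph1, Hspd1, Hspe1, Hspb1, Dnaja1 and Dnajb1, and its members are the rows of the deposited count table with those symbols. Of the 24181 genes in the table, 9 belong to the set. Counts of Hspb1, a small heat shock protein, were not analysed here. The labels describe 6 samples in 2 groups of 3, parental cells with genotype WT and cells that express STING-N153S, a mutant form of STING, which sits in the endoplasmic reticulum and signals when DNA is found in the cytosol. Both groups were grown in standard DMEM medium, and how the mutant form was introduced is not described in the labels. Only the 3 parental libraries were analysed, because the remaining columns of the table outnumber the STING-N153S samples and no label says which of them belong to those samples. The question of the series, how STING-N153S cells differ from parental cells, is therefore not answered here for these genes, and all differences given are between genes or between parental libraries.

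Chaperones bind unfolded protein and release it in cycles driven by ATP. In the cytosol, J-domain proteins deliver clients to HSP70, nucleotide exchange factors reset it, and HSP90 finishes the folding of kinases, receptors and other clients. In the mitochondrial matrix, the barrel-shaped chaperonin HSP60 (Hspd1) folds imported protein under its lid HSP10 (Hspe1). Many of these genes are also targets of the heat shock factor HSF1, which binds inverted repeats of the letters GAA called heat shock elements.

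The libraries of parental replicates 1, 2 and 3 held 3358908, 4020023 and 3210024 counts. Levels are given as CPM, counts scaled to the total of the library, with the SD over the 3 libraries (n = 3). The protocol counts the 3' end of each transcript, so counts were not divided by transcript length and CPM values of different genes were set side by side directly. Replicate 3 stood apart from the others more often than they did: of 311 genes that varied between libraries beyond counting noise, it was the farthest from the middle library in 195. Of 15 intestinal epithelial markers looked for, 5 were analysed, and none of them had more than 1 count in all (Krt8, Krt19 and Vil1 had 1 each), whereas the mesenchymal filament gene Vim had 3058 ± 176 CPM (SD, n = 3). Of 10 mesenchymal markers looked for, 9 were analysed and 7 had 1 CPM or more, with a median of 26.03 CPM over the 9; the collagen genes Col1a1 and Col1a2 had 3.58 and 0.991 CPM and Pdgfrb 0.667 CPM. The colon adenocarcinoma label was thus not accompanied by these epithelial transcripts in the libraries analysed.

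Hspd1 and Hspe1 lie head to head on chromosome 1 and share their upstream sequence. Any link between this sequence and the levels of the pair was not tested. Hspd1 spans 55077833 to 55088243 on the minus strand and Hspe1 spans 55088148 to 55091317 on the plus strand (RefSeq, GRCm38). RefSeq gives Hspd1 more than one start site. One at 55088243 lies within the Hspe1 span, and its promoter window held no heat shock element pattern. Another, at 55087932, is separated by 215 bases from the Hspe1 start at 55088148. The stretch between them, chr1:55088037-55088098 on the Hspe1 strand, reads as follows, with capitals marking the letters of overlapping heat shock elements.
Hspe1 and Hspd1 shared promoter: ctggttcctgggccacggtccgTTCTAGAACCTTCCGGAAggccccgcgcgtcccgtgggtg
The capital run of 18 bases lies 89 to 72 bases before the Hspe1 start and 144 to 127 bases before that Hspd1 start. It holds both letter patterns searched for as 3-unit elements, GAANNTTCNNGAA and its reverse complement TTCNNGAANNTTC, which overlap each other there.

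Promoter windows of 300 bases (250 before the start site and 50 after) were at hand for 7 of the 10 genes. These were 12 windows in RefSeq on GRCm38, and the 7 genes include Hspb1. A 3-unit pattern occurred in windows of 3 of those 7 genes, Hspd1, Hspe1 and Hsph1, where that of Hspd1 and Hspe1 is one and the same site. In Hsph1 it began 36 bases after the upstream start site. Among all 32851 windows of that length, 0.603% held such a pattern. A gene was counted if any of its windows held a match, whereas shares of all windows are per window. Gene counts and window shares are therefore not like for like, for either pattern length. In Hspd1 and Dnaja1, windows of other start sites held no match. The 2-unit patterns GAANNTTC and TTCNNGAA, which also occur inside the longer ones, were found in 6 of the 7 genes, all but Dnajb1, and in 15.1% of all windows. A match is a run of letters and was not tested for binding, and a window without one says nothing about HSF1.

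The inducible HSP70 genes Hspa1a and Hspa1b, neighbours on chromosome 17 (34969359 to 34972156 and 34956429 to 34959238, GRCm38, minus strand), have almost the same promoter. Their windows differed in 4 of 300 bases, 3 of them upstream of the start. Any link between the differing bases and the counts of these genes was not tested. The stretches 224 to 95 bases before each start, at chr17:34972251-34972380 and chr17:34959333-34959462, are shown with capitals at the bases that differ.
Hspa1a: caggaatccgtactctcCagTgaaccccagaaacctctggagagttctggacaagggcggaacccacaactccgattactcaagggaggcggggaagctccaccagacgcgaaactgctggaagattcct
Hspa1b: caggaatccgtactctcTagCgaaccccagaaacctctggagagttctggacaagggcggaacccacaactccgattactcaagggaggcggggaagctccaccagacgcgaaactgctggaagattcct
From Hspa1a to Hspa1b the substitutions are C207T and T204C, with positions counted upstream from the start site. Both hold the same 2-unit pattern, 104 bases before the start, and neither holds a 3-unit pattern.

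Together the 9 chaperone genes made up 0.821% of the counts in replicate 1, 0.832% in replicate 2 and 0.851% in replicate 3. The 8 genes other than Hspa1a each had a mean above 100 CPM, a level that 8.54% of all genes in the table reached, and 4 of them had a mean above 1000 CPM, which 0.542% of all genes reached. In bulk RNA, fewer cells that express a gene and less RNA per cell cannot be told apart. The median of the 9 was 666 CPM beside 0.941 CPM for all genes in the table. From high to low the means ran Hsp90ab1, Hspa8, Hspe1, Hspd1, Hsp90aa1, Hsph1, Dnaja1, Dnajb1 and Hspa1a. With library totals, no 2 neighbours in this order had overlapping library ranges. Hspe1 and Hspd1 nearly touched, with 1105.2 CPM in the lowest library of Hspe1 and 1105.0 CPM in the highest of Hspd1. With median-ratio scaling, whose factor for replicate 2 was 1.006, the ranges of Hspe1 and Hspd1 overlap.

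**Figure D1:**
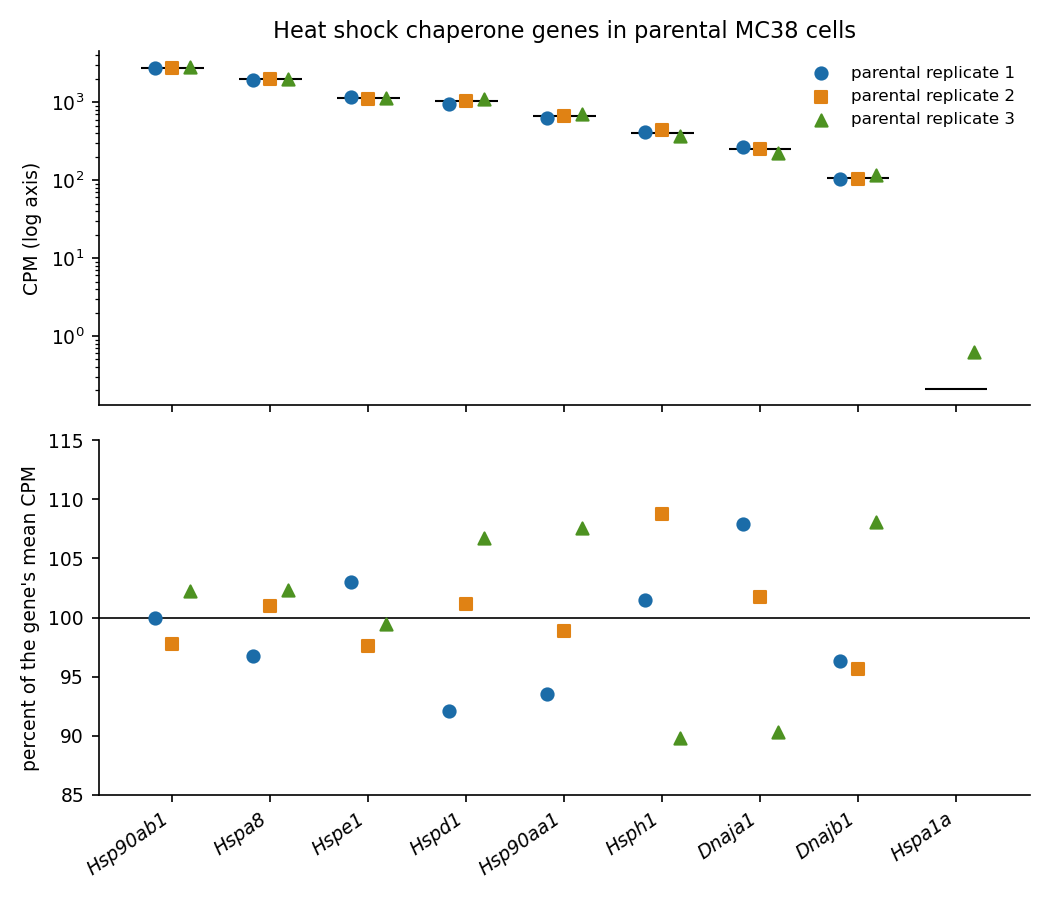
Levels of the 9 chaperone genes in the 3 parental libraries. The upper panel shows CPM on a log axis, 1 point per library and a line at the mean (for Hspa1a, 2 libraries at 0 are not drawn), and the lower panel shows each library as a percentage of the mean of the gene. Means run from 2783 CPM for Hsp90ab1 to 107 CPM for Dnajb1, with Hspa1a far below at 0.208 CPM, and replicate 3 is the highest library for some genes and the lowest for Hsph1 and Dnaja1.

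By counts, HSP90 was the largest chaperone class of the 9 genes analysed, with 41.3 ± 0.62% of their counts (SD, n = 3). HSP70 had 23.6 ± 0.36% (SD, n = 3). Nearly all HSP70 counts came from Hspa8, whose 3' end is largely shared with other genes. If reads that match several genes were dropped, HSP70 is counted too low by an unknown amount. The order of the classes may then not hold. Hsp90ab1, the constitutive cytosolic HSP90 (chromosome 17, 45567778 to 45573261, GRCm38), had 2782, 2721 and 2846 CPM in replicates 1 to 3, a mean of 2783 ± 62.5 CPM (SD, n = 3). It ranked 21 among all genes by mean CPM. Hsp90aa1, the stress-inducible HSP90 (chromosome 12, 110691036 to 110696395), had 623, 658 and 716 CPM, a mean of 666 ± 47.2 CPM (SD, n = 3). The constitutive gene was the higher of this pair in every parental library, with count ratios of 4.47, 4.14 and 3.97. The ratio was 4.19 ± 0.25 (SD, n = 3), and its exact (Clopper-Pearson) 95% interval over the pooled counts ran from 4.07 to 4.29. Such intervals cover counting error only, and they take each count as a separate molecule, which is not known here.

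Within the set, HSP70 was counted almost entirely from Hspa8 (chromosome 9, 40801276 to 40805202). Hspa8 is the constitutive HSC70 that folds new protein and uncoats clathrin vesicles. Hspa8 had 1903, 1986 and 2014 CPM, a mean of 1968 ± 57.5 CPM (SD, n = 3). Hspa1a, the stress-inducible HSP70, had 0, 0 and 2 counts, and its mean of 0.208 CPM lies below 0.283 CPM, the level of 3 counts over the pooled libraries. By counts, Hspa8 was at least 2131-fold and 2662-fold higher than Hspa1a in replicates 1 and 2, taking 3 counts per library as the floor. In replicate 3 the ratio was 3232, with an exact 95% interval from 894 to 26693.

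Hspa1b, whose protein is nearly the same as that of Hspa1a, had 36, 49 and 22 counts, or 10.7, 12.2 and 6.85 CPM. Nearly all counts of inducible HSP70 thus lay in Hspa1b, 107 against 2 over the libraries. The 2 transcripts, each a single exon in GENCODE M21, aligned over 2210 bases with 99.1% identity. The alignment ended 757 bases before the 3' end of Hspa1a and 589 bases before that of Hspa1b, so the ends that this protocol reads differ. Of the 50-base words in the last 500 bases, 0% in Hspa1a and 0% in Hspa1b were found in a transcript of another gene. With both genes added together, the ratio of Hspa8 to inducible HSP70 was 178, 163 and 269 in replicates 1 to 3, a mean of 203 ± 57.7 (SD, n = 3). Hspa1b was not called as varying between libraries (Benjamini-Hochberg adjusted p = 0.455, chi-square test).

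Hsph1, an HSP110 that exchanges nucleotide on HSP70 (chromosome 5, 149616843 to 149636498), had 413, 443 and 365 CPM, a mean of 407 ± 39.0 CPM (SD, n = 3). Hspa8 counts exceeded those of Hsph1 by 4.61, 4.49 and 5.51-fold. The exact 95% interval of replicate 3, from 5.18 to 5.87, lay above those of the other two, which ended at 4.89 and 4.73.

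Among the J-domain proteins, Dnaja1, a type A member that passes clients to HSC70 (chromosome 4, 40722468 to 40734965), had 268, 252 and 224 CPM, a mean of 248 ± 22.1 CPM (SD, n = 3). Dnajb1, the type B HSP40 that HSF1 induces (chromosome 8, 83608175 to 83612653), had 103, 102 and 116 CPM, a mean of 107 ± 7.49 CPM (SD, n = 3). Dnaja1 stood above Dnajb1 in all 3 libraries. Their count ratio was 2.60, 2.47 and 1.94, a mean of 2.34 ± 0.35 (SD, n = 3).

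The chaperonin pair of the mitochondria made up 25.97 ± 0.21% of the members' counts (SD, n = 3). Hspe1 had 1166, 1105 and 1126 CPM, a mean of 1133 ± 31.1 CPM (SD, n = 3). Hspd1 had 953, 1047 and 1105 CPM, a mean of 1035 ± 76.7 CPM (SD, n = 3). The ratio of Hspd1 to Hspe1 counts was 0.817, 0.947 and 0.981. Its exact 95% interval ran from 0.779 to 0.856 in replicate 1, from 0.908 to 0.988 in replicate 2 and from 0.937 to 1.03 in replicate 3. By the counts given, Hspe1 was thus the higher beyond counting error in replicates 1 and 2, and in replicate 3 the 2 could not be told apart. The intervals do not cover reads that match several genes. Of the 50-base words at the 3' end, 53.2% in Hspe1 and 0% in Hspd1 occurred in other genes, so Hspe1 may be counted too low in each library.

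**Figure D2:**
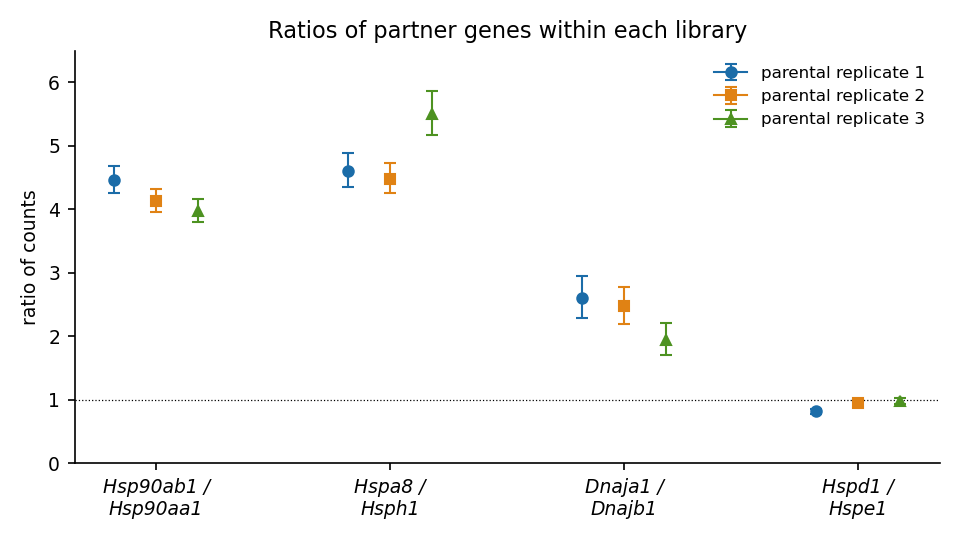
Ratios of the counts of partner chaperone genes in each parental library, with exact 95% intervals that cover counting error only. The dotted line marks a ratio of 1. Hsp90ab1 lies about 4-fold above Hsp90aa1, and Hspd1 and Hspe1 lie closest to a ratio of 1.

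Some of these levels depend on how reads that match several genes were counted, which the sources used here do not give. In Hspa8, 81.8% of the 50-base words in the last 500 bases also occurred in transcripts of other genes, 11 in number, and in Hspe1 53.2% did so. In Hsp90ab1 the share was 7.76%, from a single other gene, Gm6368, and in Hsp90aa1, Hsph1, Hspd1, Dnaja1 and Dnajb1 it was 0%. The rows of the genes sharing words with Hspa8 held 280 counts, or 1.34% of the 20842 of Hspa8. Rows named as pseudogenes of Hspd1 held 149 counts, or 1.36% of those of Hspd1. If ambiguous reads were dropped, the levels of Hspa8 and Hspe1 are too low by an unknown amount, and their ratios to other genes shift with them.

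The spread between parental libraries was then compared with counting noise, which compares libraries and not conditions. Counting noise here takes each count as a separate molecule, which is not known. Of the 8 chaperone genes tested, 5 varied beyond counting noise at a false discovery rate of 0.05 (chi-square test of counts, Benjamini-Hochberg adjustment over 11118 genes). Over all genes tested, 2.80% did so. High counts let the test find smaller differences: the share was 10.1% among genes with a mean of at least 100 CPM and 46.6% among those with at least 1000 CPM. Of the 4 chaperone genes in that last class, 2 varied, which is near its background. Of the 4 with 100 to 1000 CPM, 3 varied (Hsp90aa1, Hsph1 and Dnaja1), beside 7.66% of all genes in that range. That range holds 1933 genes, and Hsp90aa1 and Hsph1 lie high in it, at ranks 226 and 467 among all genes. Its share is thus not matched to their counts. Whether these genes vary more than genes of like level was not tested. In the 5, the highest library exceeded the lowest by 1.05 to 1.20-fold.

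Hsph1 and Dnaja1 were lowest in replicate 3. For Hsph1 the ratio of the highest to the lowest library was 1.20 and the adjusted p was 0.000439 (chi-square test, Benjamini-Hochberg adjustment). Its coefficient of variation was 9.59%, beside 2.67% from counting alone. Dnaja1 also had a ratio of 1.20, at an adjusted p of 0.0426 by the same chi-square test. By contrast, Hspd1 and Hsp90aa1 were highest in replicate 3 and lowest in replicate 1. The ratio was 1.15 for Hspd1 (adjusted p = 5.79e-06, chi-square test) and 1.14 for Hsp90aa1 (adjusted p = 0.00241, chi-square test). Hsp90ab1 passed with a ratio of 1.05 (adjusted p = 0.0406, chi-square test). Hspa8, Hspe1 and Dnajb1 had ratios of 1.05, 1.07 and 1.14 and adjusted p-values of 0.215, 0.175 and 0.590 in the chi-square test.

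Of the 5 calls, 1 was made without replicate 1 and 1 without replicate 3. Without replicate 1 the call was Hsph1 (adjusted p = 5.54e-05), and without replicate 3 it was Hspd1 (adjusted p = 0.0326, chi-square test for both). Scaling by library totals in place of median ratios left 3 of the 5, without Hsp90ab1 and Dnaja1. The role of depth or handling of single libraries in these differences was not tested.

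**Figure D3:**
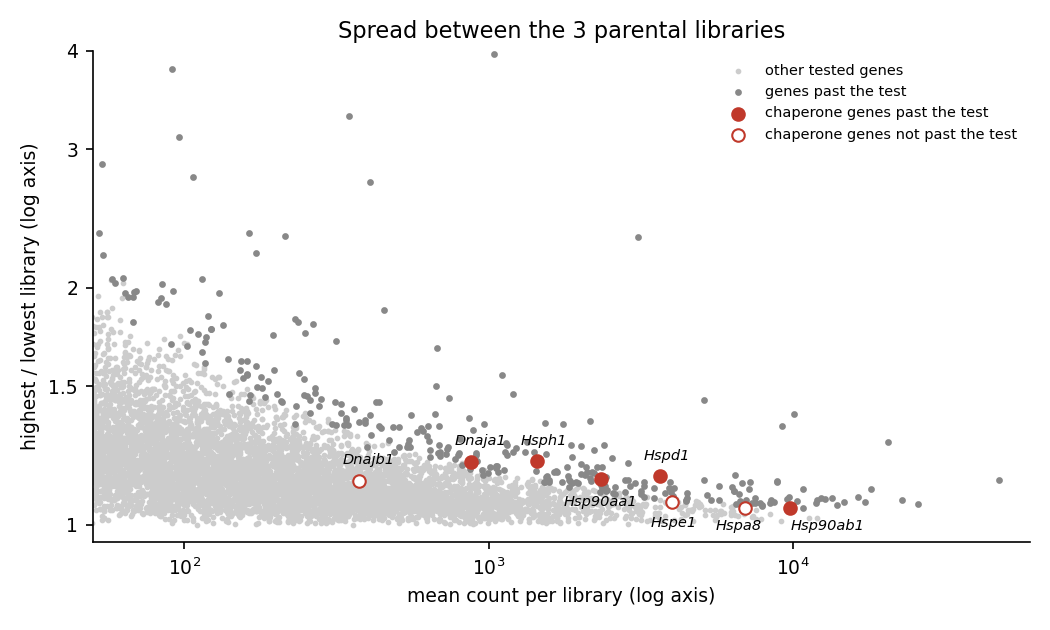
Ratio of the highest to the lowest parental library against the mean count per library, both on log axes, for the genes tested that fall within the axes. Filled red points are the 5 chaperone genes past the chi-square test and open ones the 3 that were not. All 8 lie at ratios of 1.05 to 1.20, and the 4 with the most counts at 1.15 or lower.

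The rest of the chaperone network was counted in 111 genes of 8 lists. The nearest relatives of the members, other HSP70, HSP110 and HSP90 genes, were at 1 CPM or more in 9 of 10 cases, beside 49.5% of all genes in the table, with a median of 54.9 CPM. They were led by Hspa9, the mitochondrial HSP70 mortalin, with 605 ± 11.6 CPM, and by the HSP110 relatives Hspa4, with 405 ± 14.4 CPM, and Hspa4l, with 147 ± 9.21 CPM (SD, n = 3). Trap1, the mitochondrial HSP90, had 99.8 ± 5.02 CPM (SD, n = 3). Hspa2 and Hspa1l, the HSP70 genes known from the testis, had 3.05 ± 2.01 and 0.353 ± 0.375 CPM (SD, n = 3). Of the 7 genes of this list that were tested, 0 varied between libraries by the chi-square test, and 1, Hspa2, had an unadjusted p under 0.05. Over all 11118 genes tested, 311 varied and 1466 had an unadjusted p under 0.05, so 7 genes are too few to differ from that background.

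All 20 other J-domain proteins were at 1 CPM or more, with a median of 64.3 CPM. The highest were Dnajc8 with 348 ± 18.9 CPM, Dnaja2, a relative of Dnaja1, with 344 ± 14.2 CPM, and Dnajc7, which binds both HSP70 and HSP90, with 273 ± 23.1 CPM (SD, n = 3). Each of them thus stood above Dnaja1 and Dnajb1 in mean CPM. Dnajc7 varied between libraries by 1.16-fold and was highest in replicate 3 (adjusted p = 0.0486, chi-square test). Of the 7 genes analysed from the list of other small heat shock proteins, 4 reached 1 CPM. Among them were Hspb8 with 143 ± 4.79 CPM, the alpha-B crystallin gene Cryab with 66.1 ± 3.20 CPM and Hspb11 with 59.9 ± 4.46 CPM (SD, n = 3). Whether Hspb11 belongs to this family beyond its symbol was not checked here.

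All 25 co-chaperones of HSP70 and HSP90 were at 1 CPM or more and 16 of them at 100 CPM or more, with a median of 116 CPM. Stip1 (HOP), which hands clients from HSP70 to HSP90, led with 819 ± 49.2 CPM, followed by St13 (HIP), which stabilises the ADP state of HSP70, with 729 ± 33.0 CPM and Ptges3 (p23), which binds closed HSP90, with 596 ± 47.3 CPM (SD, n = 3). Those 3 were also the members of the list that varied between libraries, by between 1.10-fold (St13) and 1.17-fold (Ptges3). Of all genes tested 2.80% varied, and of those with at least 100 CPM 10.1%.

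The cytosolic chaperonin CCT/TRiC, which folds actin and tubulin, and its partner prefoldin formed the list closest in level to the members. All 15 genes were above 100 CPM, with a median of 531 CPM and a summed level of 8463 ± 169 CPM, beside 8347 ± 153.3 CPM for the 9 heat shock chaperones (SD, n = 3). The subunits Cct5, Cct6a and Cct8 had 1248 ± 14.9, 997 ± 15.8 and 917 ± 45.7 CPM (SD, n = 3). Cct8 varied between libraries by 1.09-fold and was highest in replicate 2 (adjusted p = 0.0421, chi-square test). Tcp1, another subunit, varied the most of the list, by 1.22-fold, with 557, 570 and 465 CPM in replicates 1 to 3.

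In the mitochondrial list, Grpel1, the nucleotide exchange factor of mortalin, had 520.0 ± 33.6 CPM, the import motor subunit Timm44 267 ± 12.0 CPM and the matrix protease subunit Clpp 202 ± 2.47 CPM (SD, n = 3). Grpel1 varied between libraries and was highest in replicate 1, with 559, 496 and 505 CPM (adjusted p = 0.00777, chi-square test). Yme1l1, a protease of the inner membrane, also varied and was lowest in replicate 3, with 153.3, 142 and 116 CPM (adjusted p = 0.00796, chi-square test). Of the heat shock factors, Hsf1 had 48.1 ± 2.005 CPM and Hsf2 33.4 ± 6.51 CPM, below Hsbp1, a small protein that binds HSF1, with 313 ± 15.4 CPM (SD, n = 3). Hsf1 had 45.8, 49.8 and 48.6 CPM in the 3 libraries. Hsf2 had 40.5, 31.8 and 27.7 CPM, and did not pass the chi-square test of counts (unadjusted p = 0.0120, adjusted p = 0.187).

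Chaperones of the endoplasmic reticulum, set beside the members for level only, had a median of 283 CPM and a summed level of 7327 ± 125 CPM over 16 genes (SD, n = 3). Their HSP70, Hspa5 (BiP), had 1460 ± 24.9 CPM and their HSP90, Hsp90b1 (GRP94), 1271 ± 51.0 CPM (SD, n = 3), between the values of Hspa8 and Hspe1. The oxidoreductase Pdia3 had 905 ± 14.1 CPM (SD, n = 3). Hsp90b1, Calr and Canx varied between libraries, by 1.08, 1.18 and 1.10-fold. Over all 8 lists, 11 of 101 genes tested varied (chi-square test), beside 2.80% of all genes and 10.1% of those with at least 100 CPM. Of the 11, 4 were highest and 5 lowest in replicate 3. Without replicate 3 the number was 2, without replicate 2 it was 5 and without replicate 1 it was 6, beside 61, 274 and 213 of all genes.

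**Figure D4:**
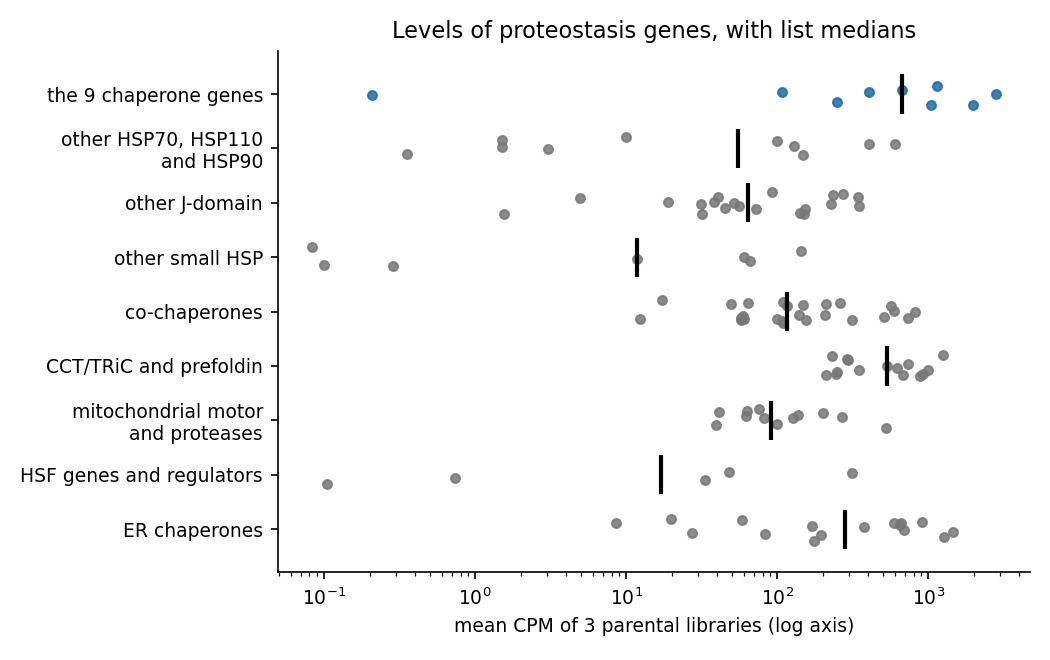
Mean CPM over the 3 parental libraries for each gene of the chaperone network, on a log axis, by list, with a bar at the list median. A gene with 0 counts is not drawn but counts in the median. The 9 heat shock chaperones have the highest median, 666 CPM, and CCT/TRiC with prefoldin the next, 531 CPM.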

How the data were processed

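Reverse transcription used oligo-dT primers with sample barcodes and molecular identifiers, per the labels' protocols. The authors deposited whole-number counts per gene. Per the file headers, reads were aligned to GRCm38 with STAR 2.7.5b and GENCODE M25, and Picard 2.18.26 and Drop-seq tools 1.12 were also used. The sources used here do not say whether counts are collapsed by molecular identifier. If they are not, the counting intervals are too narrow and the test of variation calls too many genes.

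Columns were tied to the 3 parental samples through the deposited annotation, which gives them the genotype WT and numbers them as biological replicates. The other 6 columns, 2 sets of 3, outnumber the 3 STING-N153S samples and were not used, so the planned edgeR comparison was not run. The members and lists were chosen with earlier results of these data known.

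CPM used library totals. Variation between libraries was assessed with a chi-square test against counts expected from median-ratio library sizes. All libraries had to have an expected count of 5 or more. The procedure was also run on simulated counts whose only noise was counting noise. That run cannot show how the test behaves on counts with further spread. What makes a biological replicate here (a separate culture, passage or day) is not stated, so the spread between these samples may be technical. The p-values measure departure from counting noise and not the size of that spread. Genes named beside the members are the 3 highest of each list, those that varied, and close paralogs or heat shock factors. Ratios with Hspa1b and word sharing (50 bases, last 500 bases of GENCODE M21 transcripts) were added after the data were seen. Some related rows are not reported here. Tools were Python 3.11.15, scipy 1.17.1, R 4.3.3, edgeR 4.0.16 and DESeq2 1.42.0 (scaling factors only).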

Additional observations from a re-analysis of the deposited data

How the results depend on the processing

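No paired analysis was possible because no column could be tied to the STING-N153S samples, and the other tool, filter and left-out libraries planned for that comparison were not run either. The summed level of the 9 genes was 8347 CPM and 8263 to 8414 CPM with 1 library left out. All 30 levels under TMM, median-ratio and upper-quartile scaling moved by less than 1 SD, but the factors lay between 0.984 and 1.02, so this does not show that the genes are stable. The number of chaperone genes varying between libraries, 5, was 3 with library totals, 3 with a minimum expected count of 1, 4 with TMM and 1 to 4 with 1 library left out. For all genes it was 311, and 61 to 274 with 1 library left out, the lowest without parental replicate 3. Fewer libraries give the test less to detect. The ratio of Hspa8 to Hspa1a over pooled counts, 10421, rests on 2 counts of Hspa1a and was 191 with Hspa1b added. Without replicate 3 it could not be computed, since no Hspa1a count was left. With 1 library left out, Hsp90ab1 to Hsp90aa1 was 4.06 to 4.30, Hspd1 to Hspe1 0.882 to 0.964, Dnaja1 to Dnajb1 2.21 to 2.54 and Hspa8 to Hsph1 4.55 to 5.06. Leaving out 1 of 3 values cannot move a mean by 1 SD, so no statement on stability rests on these ranges. Numbers of list genes at 1 CPM or more stayed within 1.5 times at minima of 0.5 and 2 CPM. Depth limits Hspa1a and Hspa1l, which were at or under 3 counts in each library.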
